A study of Mus musculus with 8 samples.

Results

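The genes described here are 6 that let leukocytes bind to the vessel wall: the immunoglobulin-type adhesion molecules Vcam1, Icam1 and Icam2, the endothelial selectins Selp and Sele, and Selplg, the selectin ligand of leukocytes. They were taken by name from the platform annotation, and each of the 6 had a single transcript cluster, among 30142 genes with a cluster of 1 symbol. The tissue was ascending aorta, taken from males aged 10 weeks, and both genotypes had the C57BL/6J background. Arrays mgR611, mgR612, mgR613 and mgR614 held RNA of Fbn1mgR/mgR mice, homozygous for the hypomorphic mgR allele of the fibrillin-1 gene. Arrays WT675, WT676, WT742 and WT744 held that of wild-type mice, and the line was bred from heterozygous Fbn1mgR/+ mice. The mgR allele is carried in every cell of the animal and is used as a model of severe Marfan syndrome with aortic aneurysm. The Fbn1 transcript was not analysed here and gave no check of the genotype labels. Since no label states that each sample is a different animal, the spread behind every p-value is that between samples and may be technical.

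Leukocytes leave the blood in steps. Selectins on activated endothelium catch the flowing cell by its sugar-bearing ligands and let it roll, chemokines then switch on its integrins, and these bind Icam and Vcam proteins so that the cell stops and crosses the wall. In resting arteries the endothelium carries little E-selectin, and tumour necrosis factor and interleukin-1 raise E-selectin, Vcam1 and Icam1 through NF-kappaB. Smooth muscle cells and fibroblasts of the wall can also make Vcam1 and Icam1, and P-selectin is stored in platelets as well as in endothelium.

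Upstream sequence was found for 3 of the 6 genes in the RefSeq table of GRCm38.p6, namely Icam1, Sele and Selp; Vcam1, Icam2 and Selplg had no entry. The 250 bases before each start site are shown because these 3 genes are textbook targets of inflammatory induction and all had a higher mutant mean. Capitals mark matches to the kappaB-like motif GGNNNTTCC on either strand and to the TATA motif TATAAA on the plus strand.
Icam1 (chr9:21015690-21015939, plus strand): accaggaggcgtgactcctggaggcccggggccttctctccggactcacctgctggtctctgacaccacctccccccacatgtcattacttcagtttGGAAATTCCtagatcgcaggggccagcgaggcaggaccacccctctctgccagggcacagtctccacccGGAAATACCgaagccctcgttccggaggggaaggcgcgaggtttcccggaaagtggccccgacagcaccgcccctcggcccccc
Sele (chr1:164047984-164048233, plus strand): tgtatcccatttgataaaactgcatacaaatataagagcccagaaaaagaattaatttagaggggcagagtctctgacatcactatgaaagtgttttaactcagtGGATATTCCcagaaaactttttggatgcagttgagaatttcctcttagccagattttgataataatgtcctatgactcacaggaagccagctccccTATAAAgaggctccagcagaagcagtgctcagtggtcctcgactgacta
Selp (chr1:164115014-164115263, plus strand): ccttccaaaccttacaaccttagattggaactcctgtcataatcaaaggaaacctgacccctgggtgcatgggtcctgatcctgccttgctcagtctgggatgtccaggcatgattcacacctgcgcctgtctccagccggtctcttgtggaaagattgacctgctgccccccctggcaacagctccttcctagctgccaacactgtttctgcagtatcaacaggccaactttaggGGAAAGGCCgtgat
Icam1 held the kappaB-like motif at 2 positions, starting 153 and 84 bases before the start site, and the first of them reads the motif on both strands. Sele held it at 1 position, 145 bases before the start, and a TATA motif 49 bases before it. In Selp, 1 match lay 14 bases before the start. Among 32851 upstream sequences of the same length, 15.7% held the kappaB-like motif and 7.6% the TATA motif. Matches are thus common, and a match alone does not show that a site is bound. Binding was not examined.

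In the mutant aorta Selplg rose 2.39-fold, and it was the only member of the 6 to pass the threshold (limma adjusted p under 0.05 over 32957 tested clusters). Sele, Icam1, Vcam1 and Selp had higher mutant means by 1.35- to 2.29-fold and Icam2 had a lower one, none of them past the threshold. Thus 1 of 6 was called higher and 0 lower, where 1.54% of all tested clusters were called higher, 0.558% lower and 2.10% in either direction. With unadjusted limma p-values below 0.05, 4 were higher and 0 lower, against 7.45% and 6.72% of all tested clusters. The median log2 difference of the 6 was 0.64, against -0.017 over all tested clusters. The 6 genes were chosen with earlier results of these data known, so the comparison with all tested clusters is a description and not a test. In Selplg and Icam1 every mutant array lay above every wild-type array, which held for 5.26% of tested clusters. The reverse held for 3.65%, and 8.92% had no overlap in either direction. Signals of different genes come from different probes, so only differences between arrays are compared.

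**Figure D1:**
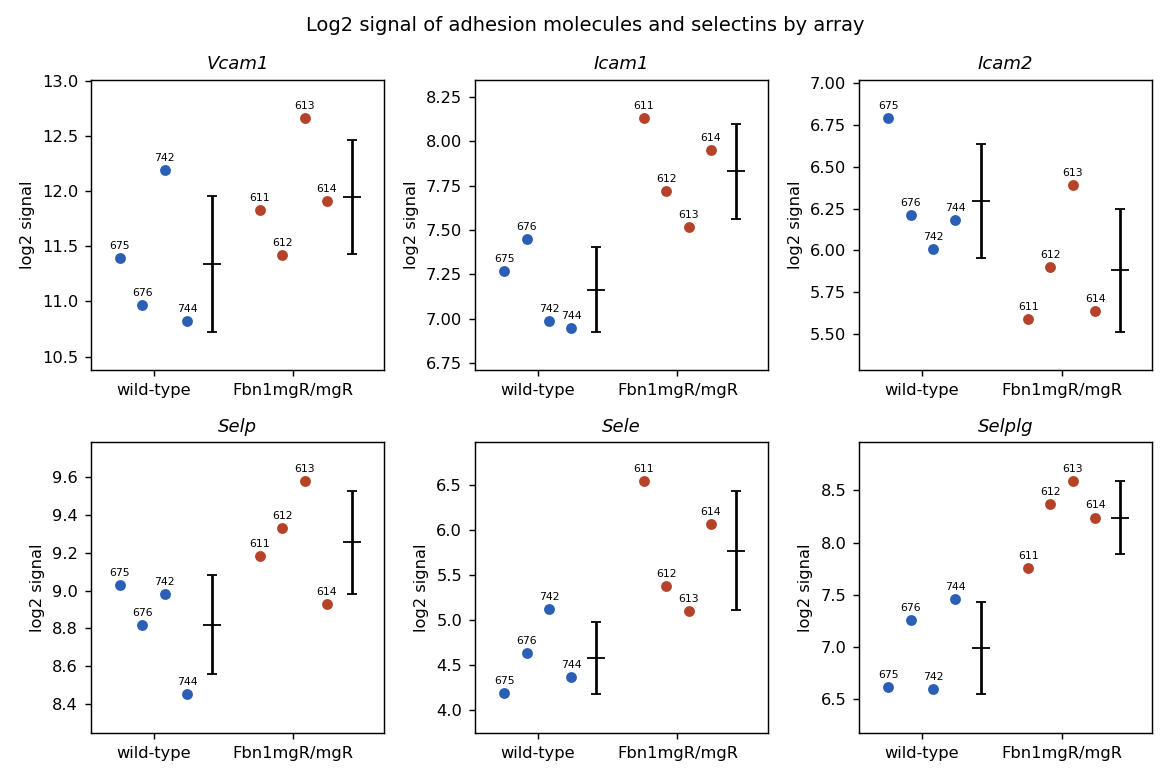
Log2 signal (vertical axis, scaled separately per gene) of the 6 genes on each of the 4 wild-type (blue) and 4 Fbn1mgR/mgR (red) arrays, labelled by the number of the array, with the mean and SD of each genotype in black. Only in Icam1 and Selplg do the genotypes not overlap, and mgR613 is the highest in Vcam1, Selp and Selplg.

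Selplg encodes P-selectin glycoprotein ligand, the mucin of leukocytes that all selectins bind. Its log2 signals were 7.76, 8.37, 8.59 and 8.24 on mgR611, mgR612, mgR613 and mgR614, and 6.62, 7.26, 6.60 and 7.46 on WT675, WT676, WT742 and WT744. The mutant array lowest in Selplg was 0.30 above the highest wild-type array. Means were 8.24 ± 0.351 and 6.99 ± 0.441 (SD, n = 4 each), a log2 difference of 1.25 (SE 0.247, 95% interval 0.70 to 1.81, limma adjusted p = 0.0352). The call held without mgR611 (adjusted p = 0.0274) or WT744 (0.0385). It was lost without mgR612 (0.0756), mgR613 (0.0965), mgR614 (0.0926), WT675 (0.1003), WT676 (0.0605) or WT742 (0.0845). The difference itself stayed between 1.13 and 1.42 in these fits.

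Pan-leukocyte and macrophage markers, like Selplg, had higher mutant means. Of 6 pan-leukocyte markers, 5 rose, among them Cd53 (log2 difference 2.02, adjusted p = 0.000657) and Lcp1 (1.86, adjusted p = 0.00152), and their mean was 7.58 to 8.07 in mutant against 6.25 to 6.80 in wild-type arrays. All 8 macrophage markers rose, among them Tyrobp with the largest difference (2.94, adjusted p = 0.00135) and Mpeg1 with the smallest p (2.59, adjusted p = 0.000519), with list means of 9.35 to 10.1 and 7.56 to 7.88. In each of the 8 fits that left out 1 array, 3 of those 5 and 6 of those 8 passed. Without mgR614 and WT676, the arrays highest in brown fat markers, 2 and 5 passed. In whole tissue, more leukocytes and more Selplg RNA per leukocyte cannot be told apart. From the lowest, the wild-type arrays ran WT742, WT675, WT676 and WT744 in both the pan-leukocyte mean and Selplg. Among the mutant arrays mgR611 was lowest in both, while mgR614 was highest in the pan-leukocyte mean and mgR613 in Selplg.

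Among the selectins, Sele encodes E-selectin, which endothelium makes when cytokines act on it. Its signals were 6.55, 5.38, 5.10 and 6.07 in the mutant arrays (mgR611 to mgR614) and 4.19, 4.63, 5.12 and 4.37 in the wild-type arrays (WT675, WT676, WT742 and WT744). The genotypes met at a single pair, WT742 being 0.02 above mgR613, and mgR611 and mgR614 stood highest. The mean was 5.78 ± 0.658 against 4.58 ± 0.404 (SD, n = 4 each), a difference of 1.198 (SE 0.319, 95% interval 0.48 to 1.91) that missed the threshold (limma adjusted p = 0.106). The wild-type values lay close to the dim end of the array, where the 95th percentile of the mean signals of 1083 olfactory receptor genes, taken as a reference for dim signals, was 4.13.

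Selp encodes P-selectin, which is held in granules of endothelium and platelets and moved to the surface within moments. It had signals of 9.18, 9.33, 9.58 and 8.93 in the mutant and 9.03, 8.82, 8.98 and 8.45 in the wild-type arrays, in the same array order. The overlap was small, since only mgR614 fell within the wild-type range. The difference was 0.43 (SE 0.186, 95% interval 0.02 to 0.85, limma adjusted p = 0.326). Of 5 tested platelet markers only Pf4 rose (1.29, adjusted p = 0.0277), a call lost in 6 of the 8 fits that leave out an array (adjusted p up to 0.0810). The others, Ppbp (0.135), Itga2b (0.035), Gp9 (-0.17) and Treml1 (-0.1), did not pass. Ppbp, a platelet chemokine, was highest on mgR611 (9.35) and WT744 (9.29), which were not the arrays highest in Selp. The part of platelets in the Selp values was not tested. The platelet list mean was 5.51 to 6.34 in mutant and 5.30 to 6.35 in wild-type arrays, while Gp5 and Gp6 did not pass the signal filter.

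Icam1, the endothelial and leukocyte ligand of the beta-2 integrins, had signals of 8.13, 7.72, 7.52 and 7.95 in the mutant and 7.27, 7.45, 6.99 and 6.95 in the wild-type arrays. All mutant arrays were above all wild-type arrays, by 0.07 at the closest pair (mgR613 and WT676). The means were 7.83 ± 0.266 and 7.17 ± 0.237 (SD, n = 4 each), a difference of 0.67 (SE 0.176, 95% interval 0.27 to 1.06) that missed the threshold (limma adjusted p = 0.103). Icam4 and Icam5 are its immediate neighbours on the chromosome. Icam4 lay near dim signals in both genotypes, at 4.06 ± 0.0668 and 4.25 ± 0.185, and Icam5 at 3.33 was not tested.

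Vcam1, the ligand of the alpha-4 integrins, had a wide range within each genotype. Its signals were 11.83, 11.42, 12.66 and 11.91 in the mutant and 11.39, 10.97, 12.19 and 10.82 in the wild-type arrays. The range was 1.24 within the mutant and 1.37 within the wild-type arrays, with mgR613 and WT742 the highest of their genotypes, against a difference of 0.61 between the means (SE 0.336, 95% interval -0.14 to 1.37, limma adjusted p = 0.470). Without WT742 the difference was 0.90 and without mgR613 it was 0.38, with adjusted p = 0.204 and 0.733. The neutrophil list mean was also highest on mgR613 and WT742, at 6.27 and 6.21 against 4.57 to 6.08 on the other arrays. S100a8, S100a9 and Retnlg were each highest of their genotype on these arrays. Among the mutant arrays, Ly6g was instead highest on mgR612, and Csf3r and Cxcr2 on mgR611. None of the 6 neutrophil markers passed in limma (0 by unadjusted p below 0.05), and their part in the Vcam1 values was not tested.

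Icam2, which endothelium makes without stimulation and platelets also carry, was the only member with a lower mutant mean. Signals of 5.59, 5.90, 6.39 and 5.64 in the mutant overlapped with 6.79, 6.21, 6.01 and 6.18 in the wild-type arrays. The 3 lowest values were mutant (mgR611, mgR614 and mgR612), and mgR613 lay above every wild-type array but WT675. The difference was -0.42 (SE 0.219, 95% interval -0.91 to 0.07, limma adjusted p = 0.446).

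Of the markers of endothelium, 0 rose in limma (0 higher and 4 lower by unadjusted p below 0.05). Among the 11 tested, Erg, a transcription factor of endothelial identity, fell (-1.21, adjusted p = 0.0447), a call that held without mgR612 (0.0176) and was lost without any other array (0.0545 to 0.123). The junction genes Pecam1 (-0.91, adjusted p = 0.174; 0.0440 without mgR613) and Cdh5 (0.02, adjusted p = 0.988) did not pass. The list mean was 8.73 and 8.77 on mgR611 and mgR614, 9.33 and 9.72 on mgR612 and mgR613, and 9.18 to 9.94 on the wild-type arrays. The order of the mutant arrays in Icam2 (mgR611, mgR614, mgR612, mgR613 from the lowest) was that of this list, and the order in Sele was the reverse. The wild-type arrays did not share this: from the lowest they ran WT744, WT742, WT676 and WT675 in the list, WT742, WT744, WT676 and WT675 in Icam2, and WT675, WT744, WT676 and WT742 in Sele. With the endothelial list mean as a covariate the Icam2 difference was -0.07, that of Sele 0.75, of Icam1 0.57, of Selp 0.72, of Vcam1 0.88 and of Selplg 1.33, and none passed (limma adjusted p from 0.0901 to 0.917). The endothelial list mean overlapped between the genotypes. For the lower Erg signal, fewer endothelial cells and less RNA per cell cannot be told apart. Among lymphatic endothelial markers Lyve1, which macrophages of the wall also make, rose (1.97, adjusted p = 0.00971), and the other 3 tested did not pass. Smooth muscle markers, which define the labelled tissue, were bright on every array (list mean 13.2 to 14.5), and 0 of 7 passed in limma (1 lower by unadjusted p below 0.05).

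**Figure D2:**
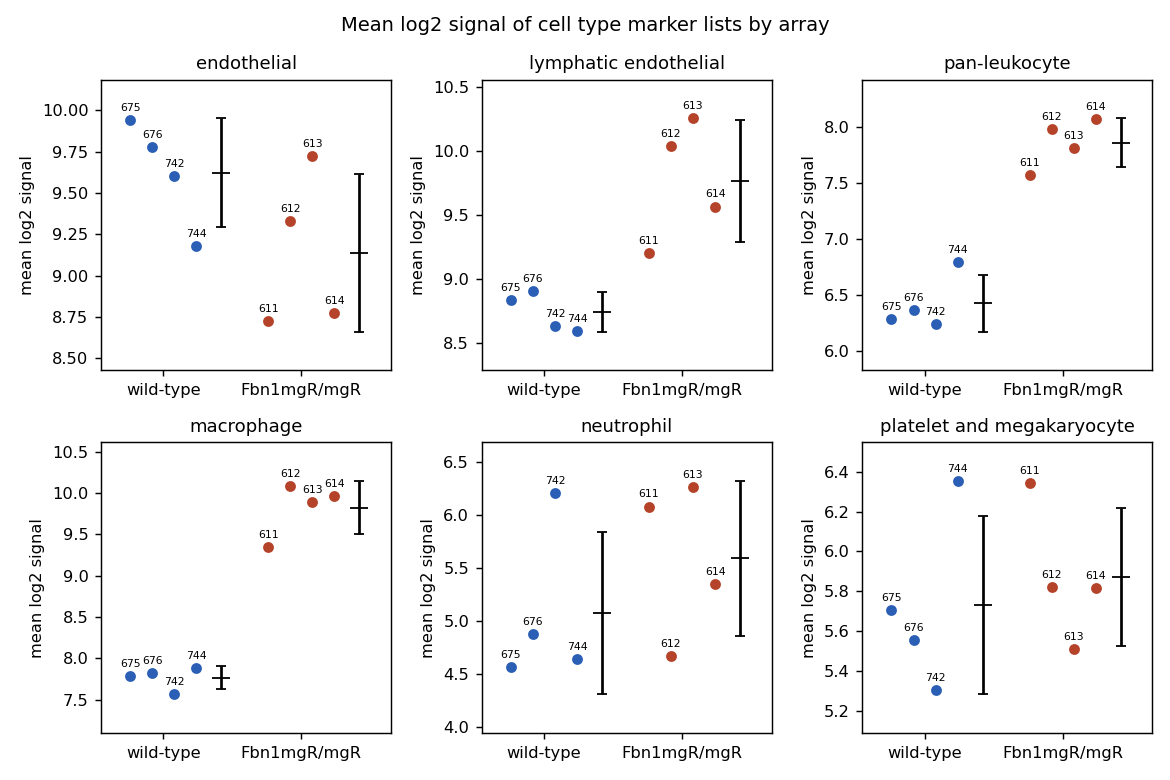
Mean log2 signal (vertical axis, scaled separately per list) of 6 cell type marker lists on each wild-type (blue) and Fbn1mgR/mgR (red) array, with the mean and SD of each genotype in black. Pan-leukocyte, macrophage and lymphatic endothelial lists separate the genotypes, while endothelial, neutrophil and platelet lists overlap. Within the lymphatic endothelial list only Lyve1 separates the genotypes by itself, and Prox1, Flt4 and Pdpn each overlap.

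The wider adhesion cascade was described by 64 further genes, of which 58 were tested; 6 rose and 0 fell in limma (14 higher and 5 lower by unadjusted p below 0.05), with a median difference of 0.04. Without mgR614 and WT676, 2 rose. Among 11 leukocyte ligands and receptors, Itgam (2.05, SE 0.180, adjusted p = 0.00103) and Itgax (1.89, SE 0.172, adjusted p = 0.00117), alpha chains of 2 of the integrins that bind Icam1, and the shared beta chain Itgb2 (1.52, adjusted p = 0.00894) rose. Itgal, the alpha chain of LFA-1, a main Icam1 receptor of lymphocytes, was at 0.10 (adjusted p = 0.828). Itgam signals lay between 7.17 and 7.91 on mutant arrays and between 5.28 and 5.58 on wild-type arrays. Cd44, a hyaluronan receptor that can also carry E-selectin ligands, rose by 1.502 (adjusted p = 0.00762). The calls of Itgam, Itgax, Itgb2 and Cd44 held in every fit that left out 1 array. Without mgR614 and WT676, those of Itgb2 (adjusted p = 0.0812) and Cd44 (0.0819) were lost, and with the endothelial covariate that of Itgb2 (0.0610). Itga4, the alpha chain of the Vcam1 receptor, was at 0.48 (adjusted p = 0.376) and Itgb1 at -0.04 (adjusted p = 0.972). The list had a median difference of 0.23.

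Of 5 genes of integrin activation, the small GTPase Rap1b rose by 0.58 (SE 0.113, adjusted p = 0.0324), a call that held without mgR611 (0.00935) and was lost without any other array (0.0720 to 0.105). The kindlin gene Fermt3 was at 0.55 (adjusted p = 0.132). Among 11 genes of cytokine and NF-kappaB induction, the tumour necrosis factor receptor Tnfrsf1b rose by 1.002 (SE 0.149, adjusted p = 0.00992), a call lost without mgR614 and WT676 (0.0751) and with the endothelial covariate (0.0501). The interleukin-1 beta gene Il1b had a difference of 1.70 (adjusted p = 0.0522; 0.0255 without mgR612), with its receptor gene Il1r1 at 0.95 (adjusted p = 0.0940) and Tnfrsf1a at 0.43 (adjusted p = 0.156). Transcripts of the NF-kappaB subunits Rela (-0.26), Relb (0.20) and Nfkb2 (0.28) and of the inhibitor Nfkbia (-0.28) did not pass, while Tnf lay below the signal filter.

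None of the 14 tested other adhesion molecules, endothelial or of immunoglobulin type, passed in limma (1 higher and 2 lower by unadjusted p below 0.05), and their median was -0.23. Aoc3, the vascular adhesion protein with amine oxidase activity, had the smallest p (-0.78, adjusted p = 0.0853), with no overlap between genotypes. Jam3 was at -0.47 (adjusted p = 0.145) and Pvr at 0.47 (adjusted p = 0.307). Of 10 tested enzymes that build selectin ligands, 0 passed in limma (0 higher and 2 lower by unadjusted p below 0.05). The sulfotransferase gene Chst4 had the widest difference, -2.92 (SE 0.657, adjusted p = 0.0586). Its signals were 8.62, 9.77, 8.22 and 8.66 in the mutant and 12.24, 12.84, 9.55 and 12.32 in the wild-type arrays. WT742 was the only wild-type array within the mutant range, and without it the difference was -3.65 (adjusted p = 0.00411). Mesothelial markers were lowest on that array among the wild-type arrays too, at 10.7 against 11.7 to 12.6, with 10.5 to 11.8 in the mutant, and their part in the Chst4 values was not tested. In the list of 7 docking and shedding genes, Rhog had the smallest p (0.77, adjusted p = 0.0746; 0.0476 without WT742), and 0 passed in limma (1 higher and 1 lower by unadjusted p below 0.05).

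**Figure D3:**
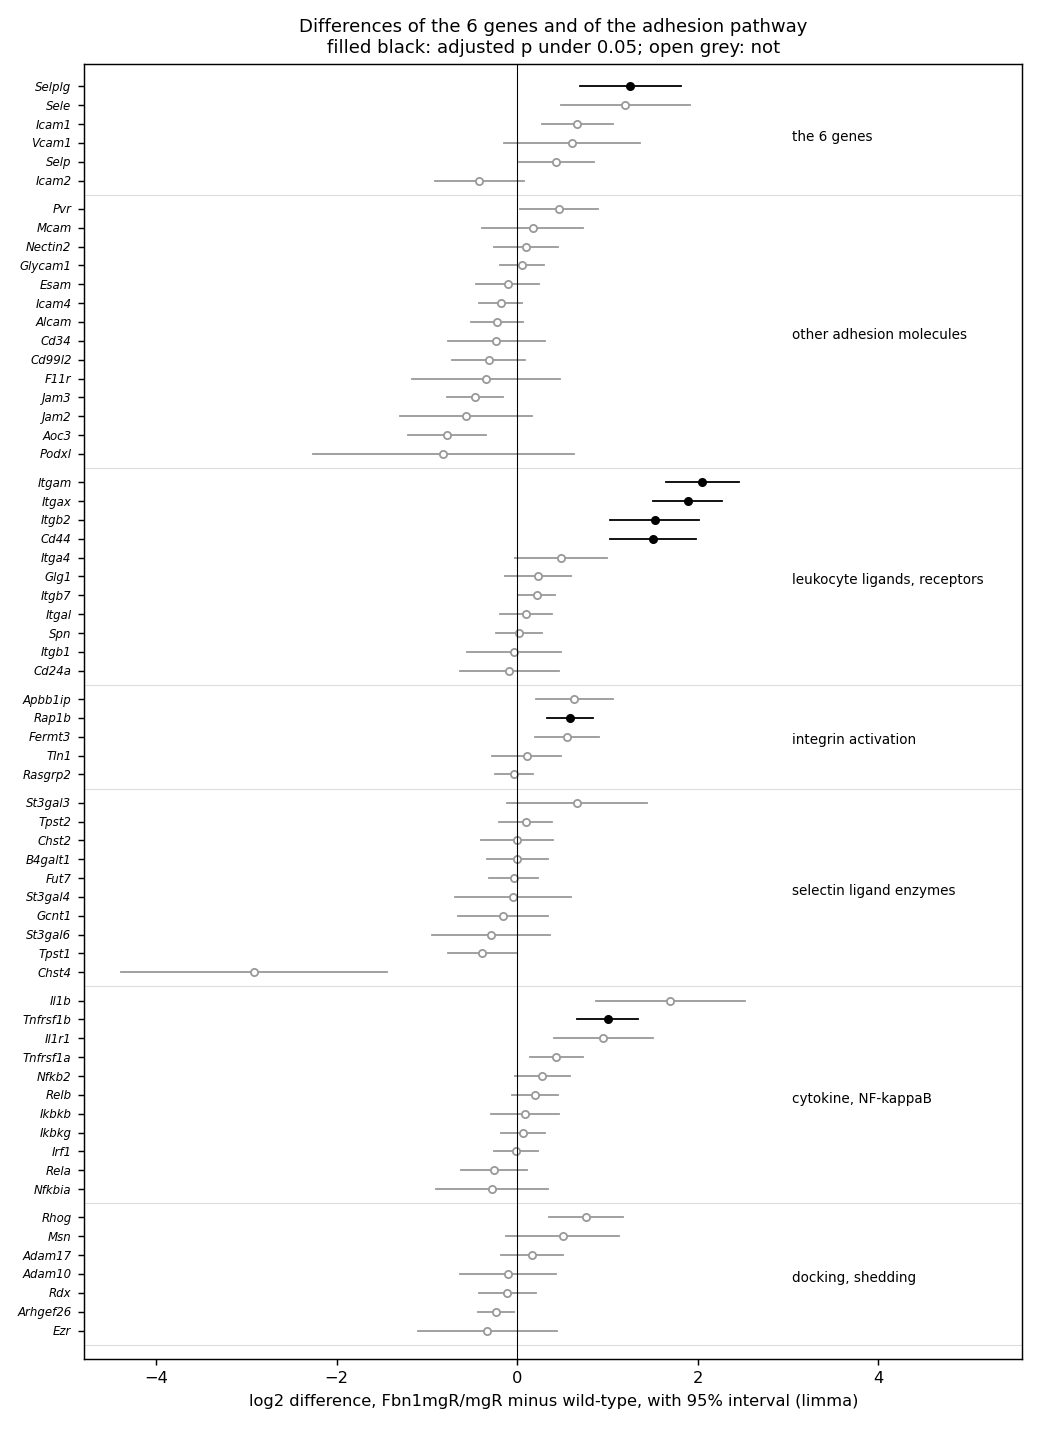
Log2 difference, Fbn1mgR/mgR minus wild-type (horizontal axis), with its 95% interval from limma for the 6 genes and the 58 tested genes of the wider cascade, grouped by role. Filled black points passed the adjusted p threshold: Selplg among the 6 genes and 6 others, all of them higher.

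The genes whose signals ran most alike over the 8 arrays differed from member to member. For Sele they were Bcl3 (Pearson r = 0.981), which encodes a nuclear partner of NF-kappaB, Spata5 (0.981) and Fhl3 (0.970). After genotype means were removed, r was 0.952, 0.949 and 0.947. For Selplg they were Dse (0.984), the lysosomal protein gene Psap (0.979) and Pla2g7 (0.976), with r of 0.938, 0.929 and 0.909 after removal. Vcam1 was followed most closely by Ttc9 (0.965), Upp1 (0.952) and the granule proteoglycan gene Srgn (0.937), with r of 0.967, 0.933 and 0.947 after removal. Icam1 was followed by Gars (0.964), Slc31a1 (0.957) and Gpr39 (0.953), and there r fell to 0.877, 0.851 and 0.864 after removal. For Icam2 the nearest were Tceal9 (0.983), Gmcl1 (0.980) and Surf1 (0.972), and for Selp they were Tram2 (0.973), Vopp1 (0.960) and Anp32b (0.960). After removal r was 0.979, 0.972 and 0.965 for Icam2 and 0.962, 0.941 and 0.929 for Selp. No gene was among the nearest 3 of more than 1 member. Each came from a search over all tested named genes with only 8 arrays, and is a description.

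**Figure D4:**
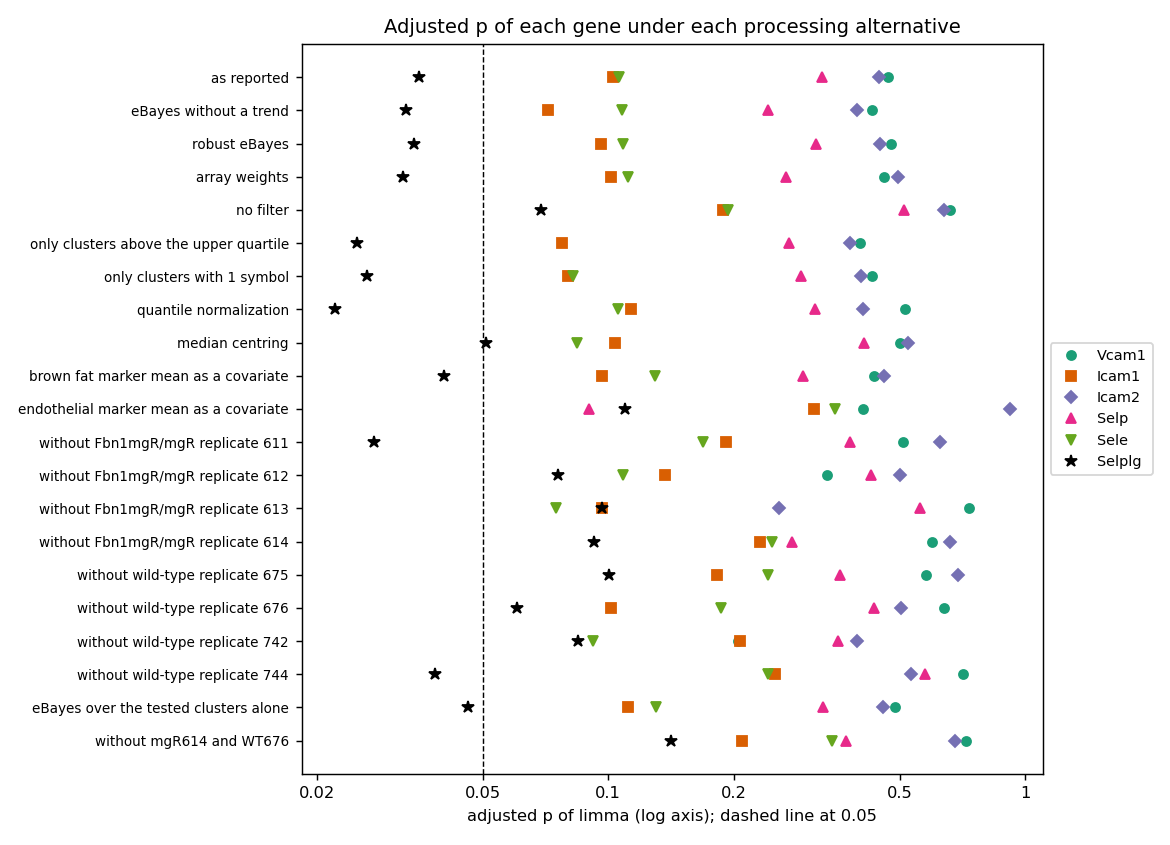
Adjusted p of limma (horizontal log axis, dashed line at 0.05) of each of the 6 genes as reported and under each processing alternative listed on the vertical axis. Selplg lies on both sides of the line depending on the alternative, and the other 5 genes lie to its right in all of them.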

How the data were processed

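Affymetrix Clariom D mouse arrays were used, per the series' design text. The authors deposited log2 signals of 65956 transcript clusters, which were used unchanged. The Transcriptome Analysis Console is named in the submitters' processing notes; how probes were summarised and arrays normalized is not given in the sources used here. Clusters with 1 gene symbol in the platform annotation (30604) were named, and gene IDs matched to RefSeq (GRCm38.p6) updated 827 symbols. A gene was represented by its brightest cluster.

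Differences are Fbn1mgR/mgR minus wild-type. The test was that of limma 3.58.1 under R 4.3.3, fitted with lmFit to all clusters and moderated with eBayes along a trend in mean signal. Benjamini-Hochberg adjustment covered the 32957 clusters whose mean signal was above the median of 4.01, and the threshold was 0.05. Every adjusted p is from limma, and from that fit unless an alternative or a left-out array is named beside it. The fit was tested on simulated data. The number of arrays limits the precision. Array medians were 3.95 to 4.07, and Pearson correlations across clusters were 0.989 to 0.993 within and 0.985 to 0.990 between genotypes.

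The 6 genes, the gene lists and the alternatives were chosen with earlier results of these data known. Named were the 6 genes, up to 4 genes with the smallest p per list, genes set beside a member, and the 3 genes most correlated with each member, leaving out predicted genes and, after the values were seen, immunoglobulin segments. Itga4, Itgal, Itgb1, Pecam1, Cdh5, Ppbp, Rela, Relb, Nfkb2 and Nfkbia were named for their role after their values were seen. The marker lists were endothelial, lymphatic endothelial, pan-leukocyte, macrophage, neutrophil, platelet, T cell, B cell, smooth muscle, fibroblast, mesothelial and brown fat. Alternatives covered moderation, weights, filters, scaling, thresholds, covariates and arrays left out. Python 3.11.15 with pandas 2.3.3 and matplotlib 3.10.9 was also used.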

Additional observations from a re-analysis of the deposited data

Results flagged for a closer look

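Among 36 groups of 4 arrays (the 6 genes and the 12 marker list means in each genotype), 1 had an array far from the others; chance flags about 1 in 20 groups. The brown fat marker mean was 11.2 on mgR614 against at most 7.79 on the other mutant arrays. Among wild-type arrays, WT676 had the highest mean (11.5), with the others at 6.51 to 8.69. With that mean as a covariate the Selplg difference was 1.25 (limma adjusted p = 0.0403), and no other member passed. Without both arrays it was 1.35 (adjusted p = 0.142), in a fit of 6 arrays that called 171 clusters higher.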

How the results depend on the processing

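No member changed direction in any of 131 differences under the alternatives, and the 5 members other than Selplg stayed on their side of the threshold. Alternatives of moderation, filter or threshold leave the difference itself unchanged, so only weights, scaling, covariates and left-out arrays could have turned it. Selplg lost its call in 11 of 22 alternatives, which left 0 members higher in each: without a filter (1.25, adjusted p = 0.0690), with median centring (1.26, 0.0508), at a threshold of 0.01 (1.25), with the endothelial mean as a covariate (1.33, 0.110), without mgR614 and WT676 (1.35, 0.142) and in 6 of the 8 fits without 1 array (1.13 to 1.42 over the 8, 0 or 1 member higher). Some of these use fewer arrays or a larger adjustment, and the cause of the lost calls was not tested. Clusters called higher were 507, and 296 with the endothelial covariate, 187 at a threshold of 0.01, 816 at 0.1, 171 without mgR614 and WT676, and 272 to 524 with 1 array left out. Those called lower were 184, and 75, 40, 393 and 77 under the same alternatives, 99 without a filter and 66 to 146 with 1 array left out. Of the cascade genes 6 were higher, and 2 without mgR614 and WT676. The number lower was 0, but 1 above the upper quartile, with 1-symbol clusters only or with quantile normalization, 2 at a threshold of 0.1, and 0 to 1 with 1 array left out. Differences past no threshold turned sign with the endothelial covariate for St3gal6 (0.068) and Tceal9 (0.003). Sign also turned for Cdh5 (quantile normalization -0.001; -0.209 to 0.191 with 1 array left out), for Itgb1 (0.003 without mgR614 and WT676; -0.229 to 0.131 with 1 array left out) and for Ppbp (array weights -0.206, endothelial covariate -1.22, without mgR614 and WT676 -0.090; -0.57 to 0.865 with 1 array left out). With 1 array left out, sign turned as well for the platelet markers Itga2b (-0.021 to 0.079) and Treml1 (-0.266 to 0.029). Some cascade genes not named here also turned sign in those fits. Variance moderation over the tested clusters alone and the fit without mgR614 and WT676 were chosen after seeing the data. The alternative of averaging a gene's clusters gave no value, since each member has 1. No paired analysis was possible because the genotypes share no replicate numbers. Signal over background limits Sele, whose wild-type signals of 4.19 to 5.12 lay near the dim reference of 4.13.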

Other observations

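Lymphocyte markers, not described above, had different patterns. None of 4 tested T cell markers passed in limma (0 by unadjusted p below 0.05), and list means ran from 5.70 to 8.02 in mutant arrays against 6.19 to 8.21 in wild-type arrays. Of 4 tested B cell markers 0 passed in limma (3 higher by unadjusted p below 0.05), and their mean was 4.30 to 5.29 in the mutant against 4.04 to 4.28 in the wild-type arrays, with no overlap and near dim signals. Fibroblast markers had means of 15.2 to 15.8 and 15.5 to 15.8, with 0 of 4 past the threshold (0 by unadjusted p below 0.05 in limma).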
